A study of Mus musculus with 12 samples.

Results

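The eukaryotic translation initiation factors (eIFs) were described in 12 RNA-seq libraries of mouse kidney tubule cells. Members were the rows of the count table whose symbol began with Eif and a digit from 1 to 6, that lay outside chromosome Y, and that carried no -ps suffix, the mark of a pseudogene. The rule took 55 of 44791 gene symbols. It left out 9 names, Eif2s3y on chromosome Y and 8 pseudogenes. After a filter on low counts 53 members were tested. Eif4e1b, an eIF4E relative of the oocyte, had no count in any library, and Eif2c5, which the table describes as an Argonaute gene rather than an initiation factor, had 1 count in all.

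Initiation factors bring the messenger RNA, the initiator tRNA and the small ribosomal subunit together at a start codon. The cap-binding complex eIF4F (eIF4E, the scaffold eIF4G and the helicase eIF4A) loads the messenger RNA, eIF2 carries the initiator tRNA, and eIF3 holds the assembly on the small subunit. Their control by mTOR, through the eIF4E-binding proteins, and by kinases that phosphorylate eIF2 is a textbook route by which cells match protein synthesis to growth signals and stress, and MYC is known to act on transcription of ribosome and translation genes.

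The cells were primary tubular epithelial cells isolated from the kidney cortex of C57BL/6 mice, with 3 mice in each of 4 genotypes. WT mice carried Setd2fl/fl without Cre. Setd2KO mice carried Ksp1.3/cre and Setd2fl/fl, MYC mice Ksp1.3/cre and MYCfl/fl, and MYC Setd2KO mice Ksp1.3/cre with both floxed alleles, so that every group other than MYC had the floxed Setd2 allele and every group other than WT had Cre. SETD2 is the methyltransferase that trimethylates histone H3 at lysine 36, and the series' design text calls the MYC construct an overexpression allele. The Ksp-cadherin promoter drives Cre in tubular epithelium, so other cells in a preparation keep their alleles. The labels do not give ages, and 1 library was made per mouse.

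Libraries held 8889185 to 44227191 counts. Mitochondrial ribosomal RNA divided them into 3 counting sets: above 10000 CPM (counts divided by the scaled library size) in set 1 (WT 1 to 3, Setd2KO 1 and 2), below 100 in set 3 (Setd2KO 3, MYC 2 and 3, MYC Setd2KO 3), and between in set 2 (MYC 1, MYC Setd2KO 1 and 2). These sets were inferred here from the ribosomal RNA levels with chosen cutoffs, and the sample labels name no such sets. The word counting is only a name. Whether the sets differ in preparation, sequencing or read counting was not tested. No set holds both WT and MYC, so set and genotype cannot be told apart in that comparison. Setd2KO 3 alone links set 1 with the others, which is also the only Setd2KO library with Xist and without Y-chromosome transcripts; MYC Setd2KO 1 and 3 have the same 2 features. Setd2 itself, counted over the whole gene, lay at 70.9 to 86.4 CPM in WT, 58.9 to 79.0 in Setd2KO, 56.8 to 62.1 in MYC and 51.1 to 80.6 in MYC Setd2KO, so the whole-gene count does not check the labels; the sources used here do not name the floxed exons. The Myc row stayed between 2.27 and 14.0 CPM. All 10 tubular markers were found, and their summed level was 4133 CPM in MYC Setd2KO 3, 6015 and 7706 in MYC 3 and 2, and 12510 to 20210 in the other 9 libraries. Summed macrophage markers, 7 of 8 found, ran from 39.4 to 62.1 CPM in WT, from 55.2 to 165 in Setd2KO, from 143 to 1162 in MYC and from 152 to 266 in MYC Setd2KO. Fibroblast and mural markers summed to 586 and 684 CPM in MYC 2 and 3, 408 in MYC Setd2KO 3 and 44.7 to 168 elsewhere, and markers of dividing cells to 105 and 117 in MYC 2 and 3 and 6.59 to 22.2 elsewhere. B and T cell markers reached 55.0 and 32.2 CPM in MYC 2 and 3 and at most 6.43 elsewhere, and endothelial markers ran from 126 to 962. The part of these cells in the differences given here was not tested. None of the markers found in these lists was at 0 in every library. In such bulk samples, fewer cells of a type and less RNA per cell cannot be told apart.

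In WT cells the initiation factors spanned more than 2 orders of magnitude. Levels between genes were compared as CPM per kb of transcript. Eif5a, the hypusine-bearing factor that helps ribosomes through difficult peptide bonds, was highest at 229 (211 to 254 over the 3 WT libraries). Eif4g2, an eIF4G relative that lacks the eIF4E-binding part, followed at 162 (145 to 192). The ranges of these genes did not overlap. Eif3k at 107, the helicase cofactor Eif4b at 105 and Eif3h at 101 came next, and their ranges overlapped. Subunits of eIF3 made up 10 of the 16 highest members, a cut that ends at Eif3m (48.5), and 14 of the 53 tested members are eIF3 genes. The others lay lower, Eif3d at 33.1, Eif3b at 13.2, Eif3j2 at 3.25 and Eif3j1 at 2.45. Eif1, which guards the choice of the start codon, stood at 87.5. The 5 eIF2B subunits lay at 3.52 (Eif2b3) to 26.4 (Eif2b5), and the 4 eIF2alpha kinases at 3.34 (Eif2ak4) to 15.1 (Eif2ak1). The subunit genes of eIF2 itself were no higher than Eif2b5, with Eif2s1 at 16.7, Eif2s2 at 21.5 and Eif2s3x at 2.63. The helicase gene Eif4a1 lay at 21.6, and Eif4ebp2, of the eIF4E-binding proteins, at 43.4. At the bottom stood Eif5a2 at 1.39, Eif4g3 at 0.50 and Eif4g1 at 0.43, and Eif4e had a count of 0 in all 3 WT libraries. The counts of Eif4g3, Eif4g1 and Eif4e divide by counting set, as given with the eIF4F genes.

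**Figure D1:**
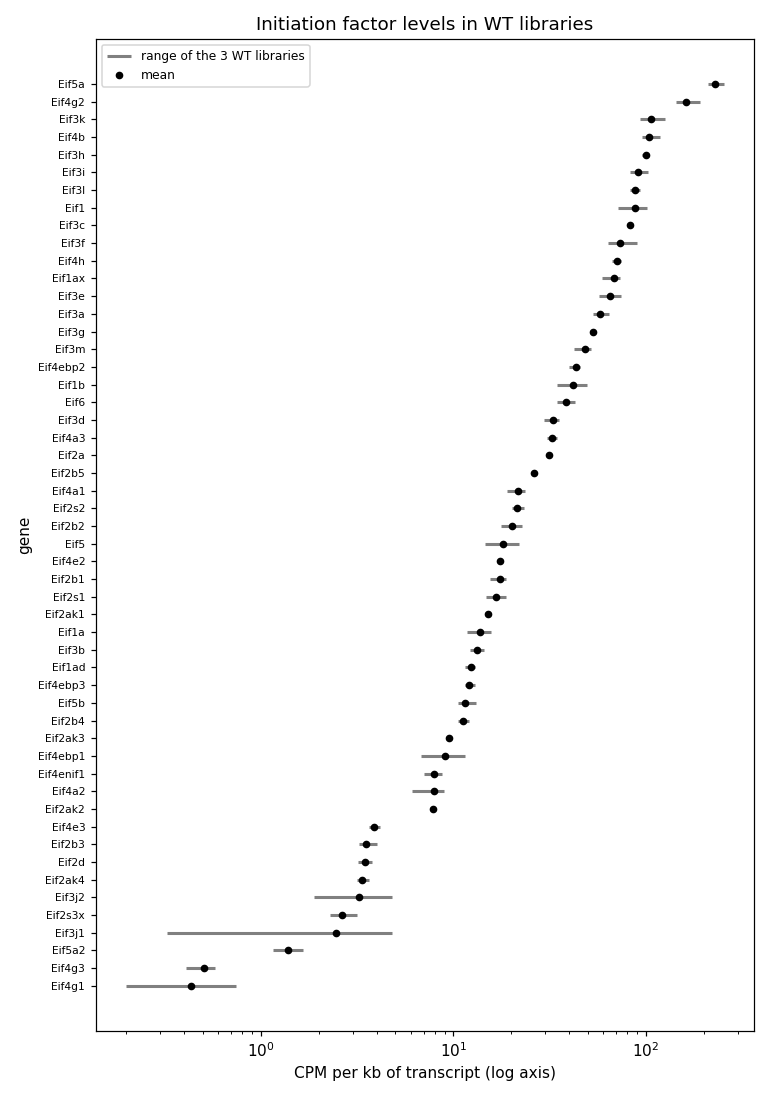
Level of each tested initiation factor in WT libraries, as CPM per kb of transcript on a log axis, with the mean as a point and the range of the 3 libraries as a bar. Eif5a at 229 stands at the top and Eif4g1 at 0.43 at the bottom; Eif4e, at 0 counts in all 3, is not drawn.

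No member passed an adjusted p of 0.05 between genotypes in the edgeR quasi-likelihood fit by genotype, adjusted over the 17019 genes tested. That holds for Setd2KO against WT, where 0.0% of all genes were called, for MYC against WT (7.99%), for MYC Setd2KO against MYC (0.176%), for MYC Setd2KO against Setd2KO (0.0%) and for the interaction of the 2 alleles (0.0118%). At an unadjusted p under 0.05 there were 1, 13, 4, 5 and 1 of 53 members in these comparisons, beside 2.91%, 36.0%, 12.9%, 9.54% and 10.2% of all genes. DESeq2 called 0, 8, 1, 0 and 0 members, beside 0.335%, 26.4%, 4.49%, 1.01% and 1.57% of all genes. Limma-voom called 0 in each, beside 0.0%, 4.06%, 0.0353%, 0.0% and 0.00588%. In MYC against WT the members' shares were thus below those of all genes at the unadjusted threshold and in DESeq2. Genes without an adjusted p from DESeq2, among them Eif4g1, Eif4g3 and Eif3b in that comparison, stand as not called. A fit with a term for counting set called 0, 1, 1, 2 and 0 members, beside 0.0%, 2.39%, 5.51%, 8.85% and 0.106% of all genes. Across the 12 libraries 18 of 53 members varied by less than 2-fold between the lowest and the highest library, against 16.4% of all genes tested. Members and all genes were not matched for count level in this comparison.

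The members' differences against WT had a median log2 fold change of 0.02 in Setd2KO, with 30 of 53 above 0, and the median of all genes was -0.01. For MYC against WT the members' median was 0.25 with 37 of 53 above 0, against -0.00 for all genes. Scaling by total counts instead moved the median of all genes in that comparison to 0.76 and that of the members to 1.01, so the excess over all genes was similar and the absolute level was not. In MYC against WT the 3 libraries of each genotype did not overlap for 22 members that were higher, against 25.5% of all genes, and for 5 that were lower, against 25.0%. The latter were Eif1b, Eif3j2, Eif4e2, Eif4ebp3 and Eif4g2. In Setd2KO against WT the groups did not overlap for 1 member that was higher and 2 that were lower, against 3.22% and 3.53%, namely Eif4e above and Eif2a and Eif2ak2 below.

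**Figure D2:**
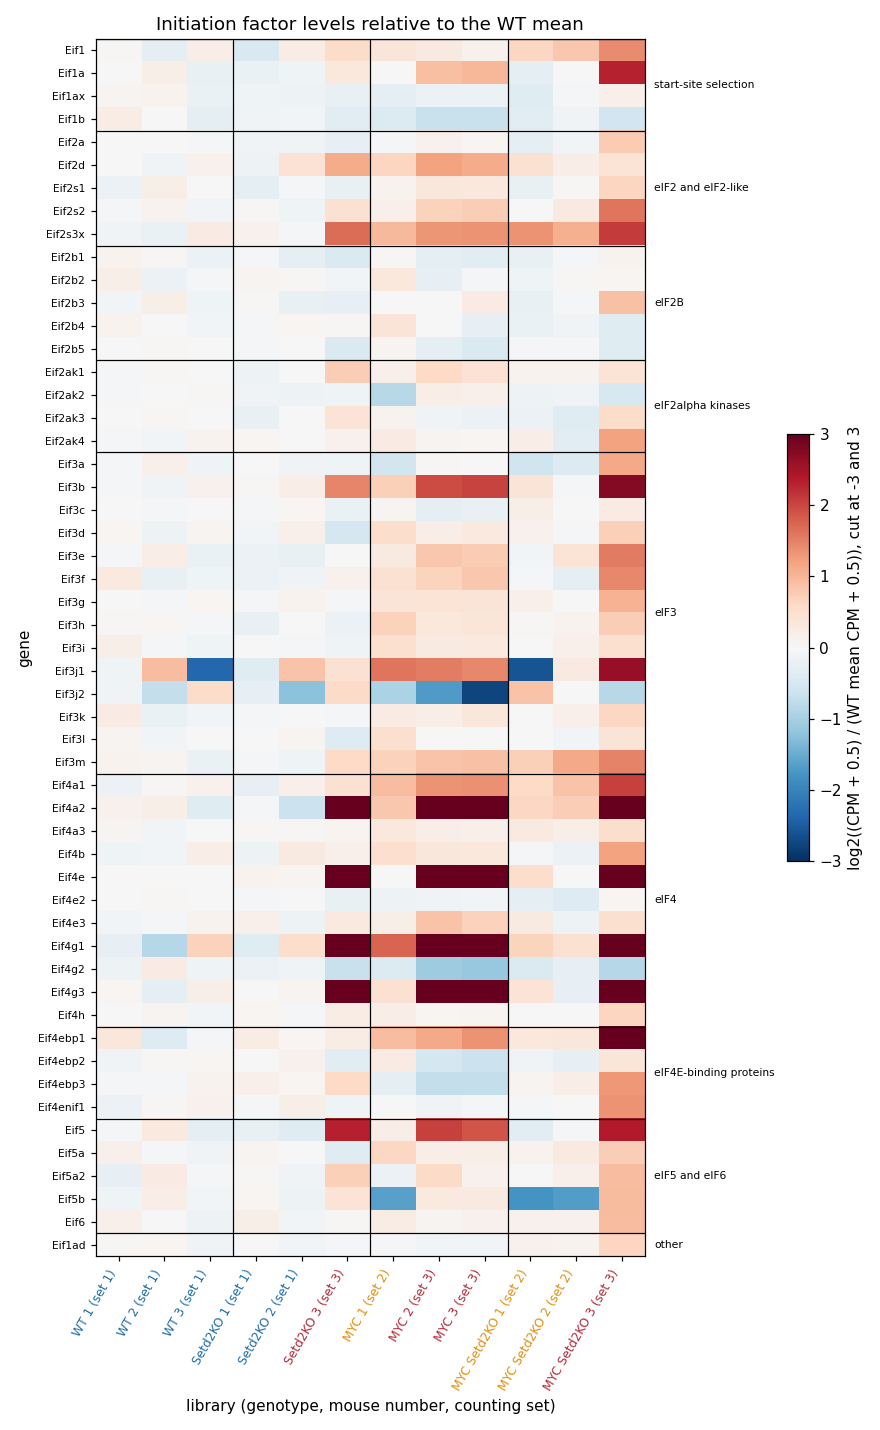
Level of the 53 tested members in each library relative to the WT mean, as log2((CPM + 0.5)/(WT mean CPM + 0.5)) cut at -3 and 3, with genes ordered by role and library names coloured by counting set. Eif4e, Eif4g1, Eif4g3 and Eif4a2 reach the upper limit of the colour scale in the 4 libraries of set 3, and the column of MYC Setd2KO 3 is raised across most roles.

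The eIF4F genes held the widest spread of the family. Eif4e, the cap-binding protein, had counts of 0, 0 and 0 in WT, 1, 1 and 1070 in Setd2KO, 0, 1324 and 1433 in MYC, and 2, 0 and 1285 in MYC Setd2KO. The 4 libraries of set 3 thus had 1070 to 1433 counts each, in 3 genotypes, and the other 8 had at most 2. Within Setd2KO, library 3 was 1835 times as high as libraries 1 and 2 together (exact 95% interval 507 to 15170, counting error only), and within MYC Setd2KO library 3 was 600.2 times as high (166 to 4961). Within MYC, libraries 2 and 3 were at least 362-fold higher than library 1, taking 3 counts over the lower side as the floor. MYC as a group was at least 1082-fold higher than WT by the same floor over the group, a ratio carried by its 2 libraries in set 3. Eif4e lies at chromosome 3, 138526191 to 138557599 on the plus strand, and the row of the microRNA Mir1956 lies inside it on that strand.

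Eif4g1, the main scaffold of eIF4F, showed the same division. Its level was 1.92, 1.09 and 4.10 CPM in WT, 1.73, 3.66 and 313 in Setd2KO, 9.18, 264 and 257 in MYC, and 4.07, 3.41 and 460 in MYC Setd2KO. Eif4g3, a second scaffold, lay at 3.87, 3.002 and 4.27 CPM in WT, 3.70, 3.95 and 128 in Setd2KO, 5.28, 118 and 110 in MYC, and 5.06, 3.03 and 125 in MYC Setd2KO. Eif4a2, a helicase paralog, lay at 27.2, 28.5 and 19.4 CPM in WT, 24.3, 15.8 and 365 in Setd2KO, 44.0, 428 and 386 in MYC, and 38.6, 42.4 and 412 in MYC Setd2KO. In each gene the 4 set 3 libraries lay above the other 8 with no overlap, whatever the genotype. Eif5, the GTPase-activating partner of eIF2, divided alike, at 55.5 to 87.2 CPM in the 8 other libraries and 266 to 374 in set 3. So did Eif3b, an RNA-binding core subunit of eIF3, at 36.3 to 64.5 CPM and 110 to 268.

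The fit by genotype gave these genes large differences with large errors. MYC against WT was a log2 fold change of 6.20 ± 2.54 (SE) for Eif4g1 (edgeR adjusted p = 0.116), 4.38 ± 1.85 for Eif4g3 (0.123), 3.52 ± 1.403 for Eif4a2 (0.110), 1.69 ± 0.71 for Eif3b (0.122) and 1.59 for Eif5 (0.217). With the counting-set term the estimates were 0.25 ± 0.92, -0.06 ± 0.36, -0.14 ± 0.36, 0.89 ± 0.47 and -0.51, and none passed. DESeq2 called Eif4a2 (log2 fold change 3.56, adjusted p = 0.0147, where the alternatives ran from 0.0147 to 0.900). Eif4g1, Eif4g3 and Eif3b received no adjusted p from DESeq2 in this comparison, so they could not be called there. In Setd2KO against WT the 5 highest members after Eif4e were Eif4g1 at 5.46 ± 2.46, Eif4g3 at 3.59 ± 1.79, Eif4a2 at 2.43 ± 1.34, Eif5 at 1.16 ± 0.89 and Eif2s3x at 0.84 ± 0.46 (edgeR adjusted p = 1.0 for each), and with the counting-set term they were 0.15, 0.03, -0.32, -0.29 and 0.05.

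**Figure D3:**
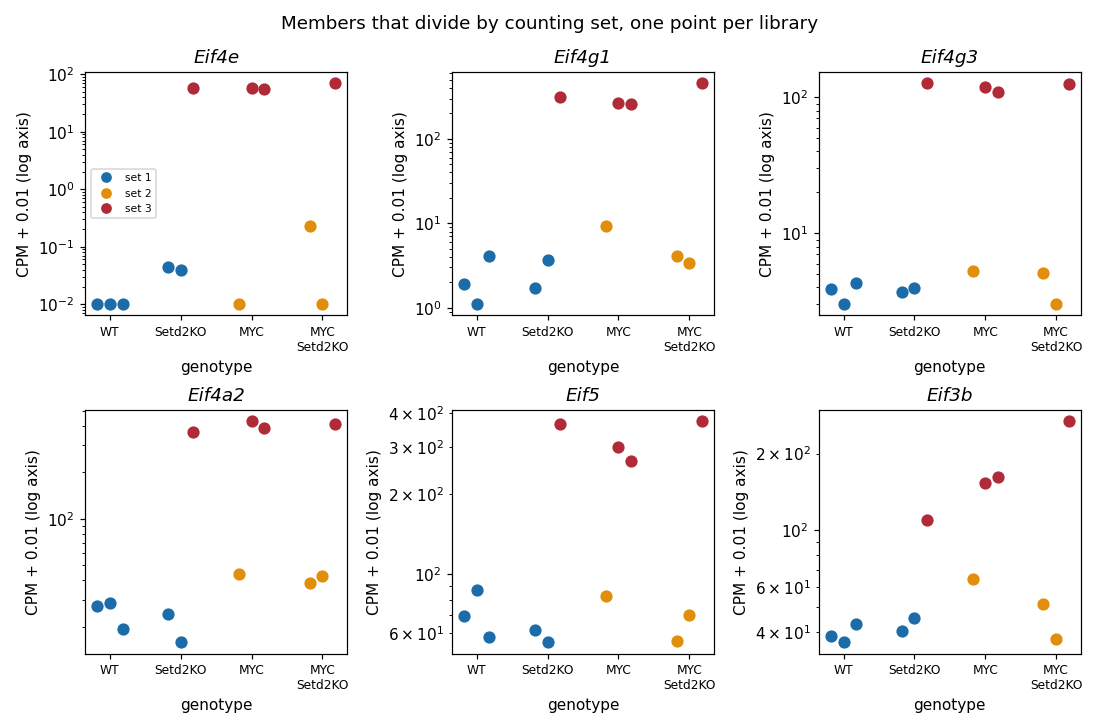
CPM + 0.01 on a log axis in each of the 12 libraries for Eif4e, Eif4g1, Eif4g3, Eif4a2, Eif5 and Eif3b, by genotype, with 1 point per library coloured by counting set. In every panel the 4 red points of set 3 lie above the other 8, in Setd2KO, MYC and MYC Setd2KO alike; Eif4g1 runs from 1.09 to 460 CPM.

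These 6 genes share a feature that the rule did not use. Each has another annotated gene of the table lying inside it on the same strand: Mir1956 in Eif4e, Snord66 and a LOC gene in Eif4g1, Mir6399 and 2 LOC genes in Eif4g3, the small nucleolar RNAs Snord2 and Snora81 in Eif4a2, Snora28 in Eif5, and Mir7038 in Eif3b. Of the 55 members 8 have such a gene, the others being Eif3a (Snora19) and Eif2b4 (a LOC gene). Members with a gene inside were higher in set 3 than in the other set of the same genotype by more than 1 on the log2 scale in 6 of 8 cases in Setd2KO, 6 of 8 in MYC and 7 of 8 in MYC Setd2KO. The same was true of 2 of 45, 2 of 45 and 13 of 45 members without one. Over all genes tested it was 37.9%, 40.4% and 42.2% of those with a same-strand overlap and 15.9%, 19.6% and 21.9% of those without. Eif2b4 was an exception, at 18.2 to 31.2 CPM in all 12 libraries. Some members without a gene inside also had every set 3 library above all others. The share of all genes whose set 3 libraries all lay above the others is not given here, so this division cannot be called particular to the family. The lowest set 3 level of Eif1a was 56.4 CPM, where the highest elsewhere was 51.15. These values were 51.4 and 43.1 for Eif2ak1, and 74.4 and 65.9 for Eif2s2. They were 108 and 103 for Eif5b, and 11.96 and 11.89 for Eif4e3. The sources used here do not say how reads that fall on more than 1 gene were counted, and its part in these levels was not tested.

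The promoters of 3 eIF4F genes are shown because MYC, with its partner MAX, is known to bind the E-box CACGTG. The windows are from RefSeq on GRCm38.p6, 250 bases before to 50 after the annotated start, 5′ to 3′, with the CACGTG letters in capitals. Eif4e is at chr3:138527018-138527317 on the plus strand, Eif4g1 at chr16:20672477-20672776 on the plus strand, and Eif4a1 at chr11:69672374-69672673 on the minus strand.
Eif4e: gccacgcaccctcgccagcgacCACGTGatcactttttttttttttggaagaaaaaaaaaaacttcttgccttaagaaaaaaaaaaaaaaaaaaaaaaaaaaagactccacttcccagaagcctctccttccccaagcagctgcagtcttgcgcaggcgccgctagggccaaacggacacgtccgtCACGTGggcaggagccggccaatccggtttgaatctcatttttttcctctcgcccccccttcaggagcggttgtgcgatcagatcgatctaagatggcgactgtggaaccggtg
Eif4g1: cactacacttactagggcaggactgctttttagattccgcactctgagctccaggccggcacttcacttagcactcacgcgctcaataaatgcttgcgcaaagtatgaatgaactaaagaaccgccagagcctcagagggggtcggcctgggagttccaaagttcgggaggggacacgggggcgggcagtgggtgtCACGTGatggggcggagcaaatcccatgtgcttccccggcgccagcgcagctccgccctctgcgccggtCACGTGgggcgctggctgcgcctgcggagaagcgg
Eif4a1: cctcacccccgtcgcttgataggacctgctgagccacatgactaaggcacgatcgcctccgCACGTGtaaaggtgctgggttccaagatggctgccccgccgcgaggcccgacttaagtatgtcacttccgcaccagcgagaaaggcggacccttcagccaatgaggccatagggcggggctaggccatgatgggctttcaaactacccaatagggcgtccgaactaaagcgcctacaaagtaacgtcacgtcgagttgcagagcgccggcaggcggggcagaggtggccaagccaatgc
CACGTG, which reads the same on both strands, was found in 12 of 56 windows of the 43 members matched by symbol (21.4%), against 7.15% of all 32851 windows of this length. The 10 members with it were Eif1b, Eif3a, Eif3f, Eif3k, Eif4a1, Eif4e, Eif4g1, Eif4h, Eif5a and Eif5a2. CACGCG or its reverse CGCGTG was found in 10 windows (17.9%) of 9 members, against 9.27%. Several windows of 1 gene overlap, so the windows are not independent, and a match is a description of letters and not a site. The 10 members differed in direction: Eif1b had a MYC against WT log2 fold change of -0.59 and Eif4a1 of 1.24.

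Eif4a1, the main helicase of eIF4F, has no other gene of the table inside it, and its libraries with and without the MYC construct did not overlap. Its level was 35.8, 41.8 and 44.4 CPM in WT, 34.4, 44.9 and 55.9 in Setd2KO, 78.0, 104 and 105 in MYC, and 62.0, 73.3 and 170.0 in MYC Setd2KO. All 6 libraries with the MYC construct lay above all 6 without it. The share of all genes with this order is not given here. In the pairwise comparisons 25.5% of all genes were higher without overlap in MYC against WT, and 5.56% in MYC Setd2KO against Setd2KO. MYC against WT was a log2 fold change of 1.24 ± 0.36 (edgeR adjusted p = 0.0556), outside the threshold. It passed under 5 of 14 alternatives, whose adjusted p ran from 0.0117 to 0.185 and whose log2 fold change ran from 0.98 to 2.03. MYC Setd2KO against Setd2KO was 1.18 ± 0.36 (adjusted p = 0.504), and 1.32 ± 0.33 with the counting-set term (adjusted p = 0.0389, where the alternatives ran from 0.0389 to 0.880), and it was 0.56 without MYC Setd2KO 3. Inside set 3 MYC 2 and 3 lay 0.90 above Setd2KO 3 on the log2 scale, so the order of genotypes there was the same.

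The rest of the eIF4 group had a narrower spread. The cap-binding relative Eif4e2 was the steadiest member of the family, at 44.8 to 61.6 CPM, and the exon-junction helicase Eif4a3 lay at 44.8 to 68.9. Eif4h, a helicase cofactor, lay at 172 to 285 CPM, with the highest value in MYC Setd2KO 3. Eif4b lay at 355 to 575 CPM in 11 libraries and 934 in MYC Setd2KO 3. Eif4e3, another eIF4E relative, was 9.73 ± 0.69 CPM (SD, n = 3) in WT and 15.0 ± 3.57 in MYC, a log2 fold change of 0.62 ± 0.26 (edgeR adjusted p = 0.124). Eif4g2 was lower in MYC, at 949, 598 and 567 CPM against 1121, 1487 and 1155 in WT, a log2 fold change of -0.83 ± 0.33 (edgeR adjusted p = 0.110), and DESeq2 called it at -0.80 (adjusted p = 0.0180, where the alternatives ran from 0.0180 to 0.700). In Setd2KO against WT Eif4g2 had the lowest value of any member, -0.30 ± 0.33, with 787 CPM in Setd2KO 3 and 1118 and 1142 in the other 2 libraries.

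Among the eIF4E-binding proteins, which hold eIF4E away from eIF4G until mTOR phosphorylates them, Eif4ebp1 and Eif4ebp3 had opposite orders in MYC cells. Eif4ebp1 was 11.3, 6.66 and 8.60 CPM in WT, 10.3, 9.27 and 10.3 in Setd2KO, 17.4, 20.0 and 23.1 in MYC, and 11.1, 11.4 and 75.6 in MYC Setd2KO. MYC lay above WT without overlap, with a log2 fold change of 1.19 (edgeR adjusted p = 0.197). MYC Setd2KO against Setd2KO was 1.72 ± 0.65 (adjusted p = 0.506), and without MYC Setd2KO 3 it was 0.15. Eif4ebp3 was 13.2, 13.5 and 14.8 CPM in WT, 15.4, 14.5 and 21.2 in Setd2KO, 11.3, 8.20 and 8.21 in MYC, and 14.8, 15.9 and 34.9 in MYC Setd2KO. MYC was the lowest group and overlapped no other. MYC Setd2KO against MYC was a log2 fold change of 1.25 ± 0.34 (edgeR adjusted p = 0.178), and it passed with the counting-set term at 1.28 ± 0.30 (adjusted p = 0.0387) and in DESeq2 at 1.25 (adjusted p = 0.0272, where the alternatives ran from 0.0272 to 0.546). Without MYC Setd2KO 3 it was 0.72, and the difference was 0.44 inside set 2 and 2.08 inside set 3. Eif4ebp2 lay at 49.8 CPM or above in all libraries, and Eif4enif1, the transporter that takes eIF4E into the nucleus, from 31.1 to 39.7 in 11 libraries with 91.0 in MYC Setd2KO 3. All 4 had a value above 0 in MYC Setd2KO against MYC (median 0.68 against 0.05 for all genes), 1 of them past the threshold with the set term and 0 by genotype. Without MYC Setd2KO 3 the median was 0.04. Inside set 2 the values were -0.62 for Eif4ebp1, -0.43 for Eif4ebp2, -0.03 for Eif4enif1 and 0.44 for Eif4ebp3.

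**Figure D4:**
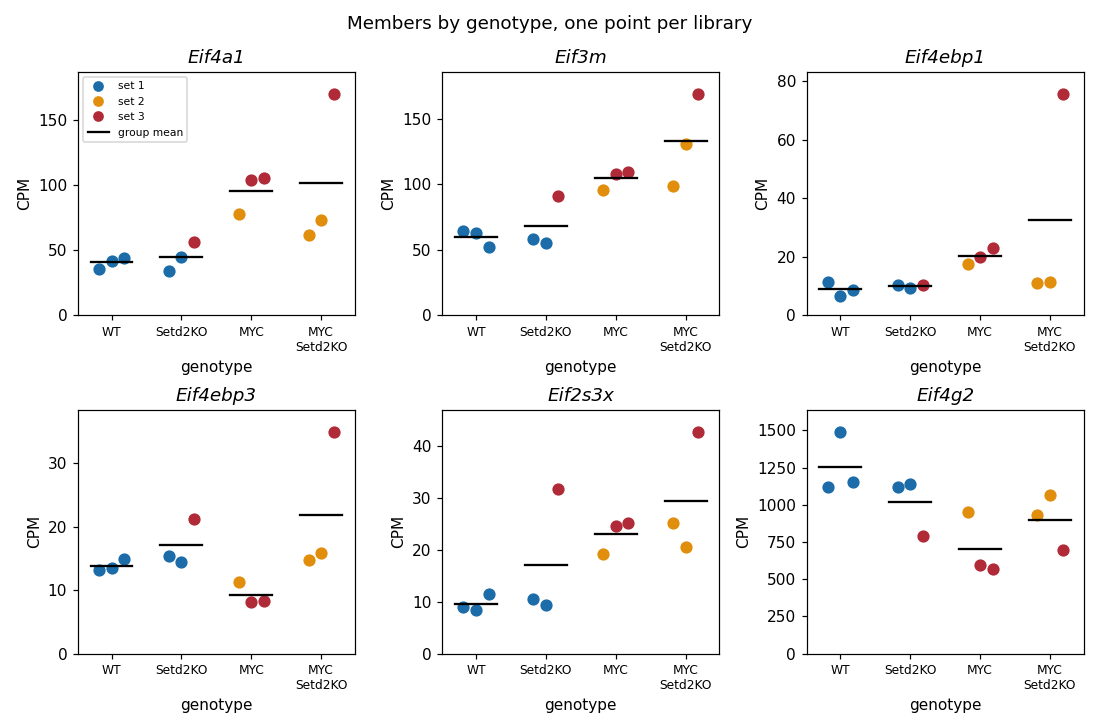
CPM in each library for Eif4a1, Eif3m, Eif4ebp1, Eif4ebp3, Eif2s3x and Eif4g2 by genotype, with points coloured by counting set and the group mean as a line. Eif4a1 and Eif3m lie above all libraries without the MYC construct in the libraries that carry it, and MYC Setd2KO 3 is the highest point in every panel but that of Eif4g2.

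The 3 subunit genes of eIF2, which brings the initiator tRNA, and the related Eif2a and Eif2d had 5 of 5 values above 0 in MYC against WT and none past the threshold by genotype. Eif2s1, the alpha subunit that the kinases phosphorylate, was 52.7 ± 6.39 CPM in WT and 63.2 ± 5.88 in MYC (SD, n = 3). Eif2s2, the beta subunit, was 54.1 ± 4.04 CPM in WT and 79.3 ± 17.0 in MYC, and 53.7, 65.9 and 166 in MYC Setd2KO. Eif2s3x, the X-linked gamma subunit, was 8.88, 8.30 and 11.4 CPM in WT, 10.5, 9.30 and 31.6 in Setd2KO, 19.2, 24.6 and 25.1 in MYC, and 25.1, 20.6 and 42.6 in MYC Setd2KO. MYC against WT was a log2 fold change of 1.27 ± 0.46 (edgeR adjusted p = 0.0910), and with the counting-set term it was -0.20. The libraries without Y-chromosome transcripts had 31.6 and 42.6 CPM in set 3, against 24.6 and 25.1 in the others of that set, and 25.1 in set 2, against 19.2 and 20.6. The gene is known to escape X inactivation, and its Y-linked partner Eif2s3y, left out by the rule, was at 0 in the same 3 libraries and at 42.8 to 78.7 CPM in the other 9.

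Eif2d, which can deliver a tRNA to the ribosome without eIF2, was 12.48, 11.7 and 13.9 CPM in WT, 11.3, 17.3 and 28.0 in Setd2KO, 20.2, 29.96 and 28.0 in MYC, and 17.5, 14.6 and 17.1 in MYC Setd2KO. MYC lay above WT without overlap, at a log2 fold change of 1.04 ± 0.31 (edgeR adjusted p = 0.0595), and with the counting-set term the value was 0.16 ± 0.36 (adjusted p = 0.881). Setd2KO 3, of set 3, lay at the level of the MYC libraries of that set. MYC Setd2KO lay below MYC without overlap, at -0.66 ± 0.31 (edgeR adjusted p = 0.403), and the interaction of the 2 alleles was -1.24 ± 0.44 (adjusted p = 0.485), the only member with an unadjusted p under 0.05 there. Rassf5 and a LOC gene overlap Eif2d on the opposite strand, and the sources used here do not state the strand setting of the counting. Eif2a, an alternative initiator tRNA carrier, ran from 58.7 to 78.8 CPM in 11 libraries and reached 123 in MYC Setd2KO 3.

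No gene of the exchange factor eIF2B or of the eIF2alpha kinases was called by genotype. The 5 eIF2B subunits recharge eIF2 with GTP, and 4 of them varied by less than 2-fold over the 12 libraries; their median log2 fold change lay between -0.14 and 0.04 in the 4 pairwise comparisons. Eif2b5, the catalytic subunit, ran from 49.8 to 70.9 CPM. Eif2b1 was -0.26 ± 0.19 in Setd2KO against WT, and Eif2b4 was -0.26 ± 0.20 in MYC Setd2KO against Setd2KO, where it was the only member whose groups did not overlap in the lower direction (4.41% of all genes). Of the 4 kinases 2 varied by less than 2-fold. Eif2ak1 (heme-regulated) ran from 34.9 to 64.8 CPM, Eif2ak2 (activated by double-stranded RNA) from 19.0 to 39.0, Eif2ak3 (of the endoplasmic reticulum, PERK) from 32.8 to 62.4, and Eif2ak4 (GCN2, which senses uncharged tRNA) from 13.9 to 20.6 in 11 libraries with 40.6 in MYC Setd2KO 3. None of these 9 genes had an unadjusted p under 0.05 in any comparison by genotype.

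The 14 eIF3 genes had 11 values above 0 in MYC against WT, with a median log2 fold change of 0.37, and 14 of 14 in MYC Setd2KO against Setd2KO, with a median of 0.45 (0.01 for all genes). Without MYC Setd2KO 3 the latter was 10 of 14 with a median of 0.10. None passed by genotype in either comparison. Eif3m, a subunit of the outer part of the complex, was 64.1, 62.7 and 52.1 CPM in WT, 58.1, 54.9 and 90.9 in Setd2KO, 96.2, 108 and 110 in MYC, and 98.8, 131 and 169 in MYC Setd2KO. As with Eif4a1, all 6 libraries with the MYC construct lay above all 6 without it, an order whose share over all genes is not given here. MYC against WT was 0.81 ± 0.25 (edgeR adjusted p = 0.0617), but with the counting-set term it was 0.25 ± 0.29 (adjusted p = 0.713), where Eif4a1 was 1.03 ± 0.38. In the fit by genotype MYC Setd2KO against Setd2KO was 0.97 ± 0.25 (edgeR adjusted p = 0.503). Without Setd2KO 3 the latter was called at 1.23 (adjusted p = 0.0317, where the alternatives ran from 0.0107 to 0.880). Ccdc73 overlaps Eif3m on the opposite strand.

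Eif3e was 98.1, 115 and 87.8 CPM in WT, 87.9, 86.2 and 101 in Setd2KO, 121, 176 and 171 in MYC, and 94.98, 133 and 297 in MYC Setd2KO. MYC Setd2KO against Setd2KO was 0.93 ± 0.36 (edgeR adjusted p = 0.506), 1.28 ± 0.34 with the counting-set term (adjusted p = 0.0444), and 0.29 without MYC Setd2KO 3 (the adjusted p of the alternatives ran from 0.0444 to 0.880). The scaffold Eif3a ran from 199 to 335 CPM in 11 libraries and reached 655 in MYC Setd2KO 3, the core subunit Eif3c ran from 194 to 282, and Eif3h from 105 to 206. MYC lay above WT without overlap for Eif3b, Eif3d, Eif3e, Eif3f, Eif3g, Eif3h, Eif3i, Eif3j1 and Eif3m.

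Eif3j1 and Eif3j2 are near-identical copies of 1 subunit gene, so their counts can be split between them and each is uncertain. Eif3j2 was 7.31, 4.59 and 11.7 CPM in WT and 3.80, 2.07 and 0.75 in MYC, and MYC against WT was -1.84 ± 0.71 (edgeR adjusted p = 0.104) and -3.81 ± 0.85 with the counting-set term (adjusted p = 0.0499, where the alternatives ran from 0.0392 to 0.282). Eif3j1 was 5.83, 12.6 and 0.85 CPM in WT and 20.7, 19.4 and 18.2 in MYC. Their sum was 13.1, 17.2 and 12.53 CPM in WT, 11.4, 15.1 and 21.0 in Setd2KO, 24.5, 21.5 and 19.0 in MYC, and 15.2, 15.7 and 45.8 in MYC Setd2KO. The sum varied 4.01-fold over the libraries, where Eif3j1 alone varied 63.0-fold and Eif3j2 19.5-fold. Summed, MYC lay above WT, the opposite order to that of Eif3j2 alone.

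Of the start-site genes, Eif1 was 109, 87.0 and 123 CPM in WT, 77.3, 124 and 156 in Setd2KO, 138, 128 and 116 in MYC, and 163, 188 and 283 in MYC Setd2KO. The 3 MYC Setd2KO libraries lay above all 9 others. The log2 fold change was 0.73 ± 0.29 against MYC (edgeR adjusted p = 0.317), or 0.45 without MYC Setd2KO 3, and 0.83 ± 0.29 against Setd2KO (adjusted p = 0.506). Eif1b, its paralog, was lower in MYC than in WT without overlap, at 28.6, 24.1 and 24.2 CPM against 45.3, 38.5 and 31.6, a log2 fold change of -0.59 ± 0.20 (edgeR adjusted p = 0.0759). Scaled by total counts, that value was 0.17. Eif1ax, the X-linked eIF1A that works beside eIF1, was steady at 49.2 to 70.1 CPM. Its autosomal copy Eif1a lay at 36.7 to 90.1 CPM in 11 libraries and at 226 in MYC Setd2KO 3, and its MYC Setd2KO against Setd2KO value of 1.17 ± 0.60 (edgeR adjusted p = 0.570) was -0.20 without that library. Eif1ad, named for an eIF1A domain, was 33.6, 32.6 and 48.0 CPM in MYC Setd2KO and 28.4 to 31.9 in the other 9 libraries.

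The late-acting factors differed in steadiness. Eif5b, the GTPase that joins the ribosomal subunits, was 80.6 to 103 CPM in set 1, 108 to 173 in set 3, and 28.8, 25.6 and 27.6 in the 3 libraries of set 2. It was thus lowest in MYC 1 and MYC Setd2KO 1 and 2, of 2 genotypes, and its values by genotype (-0.37 ± 0.70 in MYC Setd2KO against Setd2KO) had large errors. Rev1 and a LOC gene overlap it on the opposite strand. Eif5a ran from 257 to 555 CPM, was 331 ± 32.4 in WT and 420.3 ± 76.0 in MYC (SD, n = 3), and did not overlap between those groups. Eif5a2, its paralog, ran from 5.75 to 13.6 CPM, and Eif6, which keeps the ribosomal subunits apart, from 51.8 to 67.3 in 11 libraries with 109 in MYC Setd2KO 3.

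MYC Setd2KO 3 stood apart across the family. Inside set 3 the members' median was 0.60 above MYC 2 and 3 on the log2 scale, with 47 of 53 above 0, where the median of all genes was -0.07, and 0.68 above Setd2KO 3, with 45 of 53 above 0 and -0.04 for all genes. Inside set 2 the order was the opposite: MYC Setd2KO 1 and 2 lay at a median of -0.16 against MYC 1, with 13 of 53 above 0 and -0.01 for all genes. The pooled median of MYC Setd2KO against MYC, 0.09 with 32 of 53 above 0 (0.05 for all genes), therefore does not hold within both sets, and without MYC Setd2KO 3 it was -0.25 with 12 of 53 above 0. The median of MYC Setd2KO against Setd2KO was 0.32 with 41 above 0 (0.01 for all genes), and -0.05 with 21 above 0 without that library. That library also had the lowest summed tubular markers, and its part in these medians was not tested. In MYC Setd2KO against MYC 4 members were higher and 1 lower without overlap, against 5.86% and 6.66% of all genes. In MYC Setd2KO against Setd2KO 8 were higher, against 5.56%: Eif1, Eif1ad, Eif3h, Eif3m, Eif4a1, Eif4a3, Eif4ebp1 and Eif5a.

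**Figure D5:**
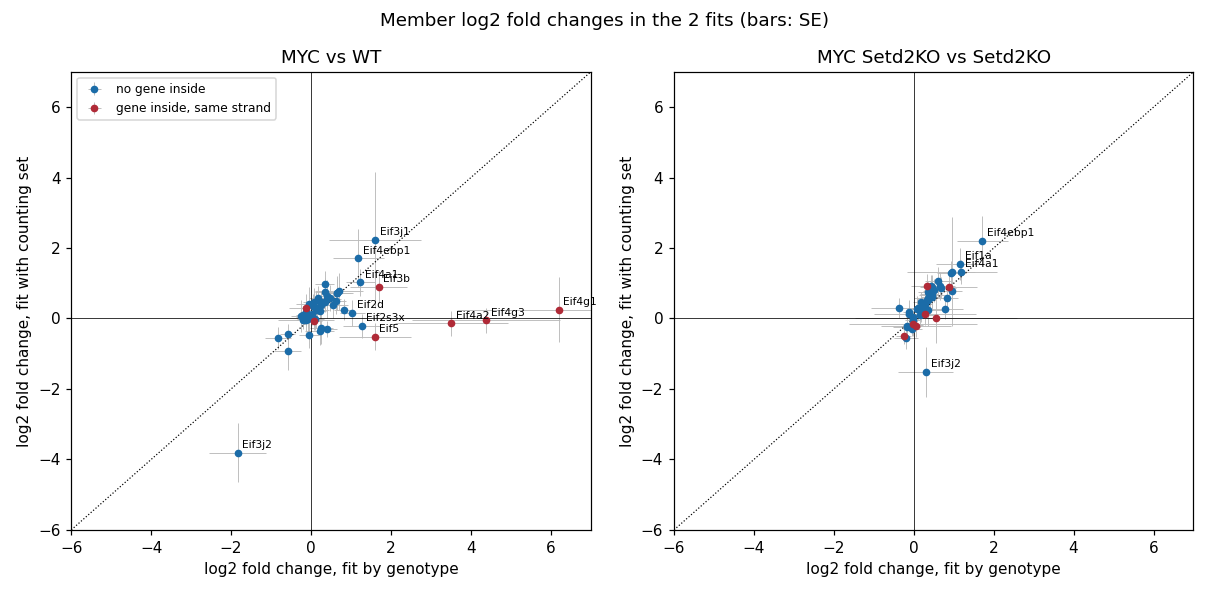
Log2 fold change of each member in the fit by genotype (x axis) and in the fit with a term for counting set (y axis), with SE bars, for MYC against WT (left) and MYC Setd2KO against Setd2KO (right); red points have another gene inside on the same strand, and Eif4e is left out because WT has no counts. On the left Eif4g1 (6.20 and 0.25), Eif4g3 (4.38 and -0.06) and Eif4a2 (3.52 and -0.14) lie far from the dotted line of equality, and Eif4a1 (1.24 and 1.03) lies near it.

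Genes that work with the initiation factors were read from 5 lists. Of 17 genes of mTOR and MAPK control, 1 rose and none fell in MYC against WT by genotype. It was Rps6, the ribosomal protein that S6 kinase phosphorylates, at 1.34 ± 0.33 (edgeR adjusted p = 0.0447). Of 11 genes of poly(A) binding, scanning and recycling, Pabpc4, a poly(A)-binding protein, rose by 1.69 ± 0.44 and Paip1, a partner of the poly(A)-binding protein, fell by 0.67 on the log2 scale. Of 10 genes of the integrated stress response, which follows eIF2alpha phosphorylation, 2 rose: Asns, asparagine synthetase, by 3.67 ± 0.89, and Nupr1, a stress-induced nuclear protein, by 2.24 ± 0.30. Of 10 tested elongation and termination genes Eef1g, a subunit of the elongation factor exchange complex, rose by 2.23 ± 0.39, and of 6 hypusine and polyamine genes Sms, spermine synthase, fell by 0.93. Nupr1 was 11.7, 8.84 and 13.1 CPM in WT and 39.0, 50.1 and 69.7 in MYC, and it was the only one of these 7 genes also called with the counting-set term (1.896 ± 0.357). Ddit3, the stress factor CHOP, was called in MYC Setd2KO against MYC only with that term, at 1.04 ± 0.25 (edgeR adjusted p = 0.0439). No gene of the 5 lists was called by genotype in the other 4 comparisons. The 7 calls in MYC against WT stand beside 7.99% called over all genes, and without any 1 of WT 1, WT 2, WT 3, MYC 2 or MYC 3 at most 3 genes of the whole table were called. The lists' medians there were 0.33, -0.01, 0.65, 1.57 and 0.26 in the order given, against -0.00 for all genes. With the counting-set term they were 0.01, -0.02, 0.80, 0.80 and -0.14, against -0.02.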

How the data were processed

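Poly(A) RNA of 12 libraries was made into directional paired-end libraries, per the labels' protocols. The authors deposited 1 table of raw read counts in whole numbers for each gene, with gene positions and a transcript length per gene in the table, a value of another kind than the counts; per-kb levels use that deposited length. The submitters' processing notes list HISAT2, Trimmomatic 0.35, cutadapt 1.9.1, StringTie, FastQC, MACS2 2.1.1, and mm10 and GRCm38, with no role for any. The sources used here name neither the counting program nor its strand setting. A row whose symbol was damaged (1 in all) was left out.

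Counts were filtered with filterByExpr, scaled by TMM (factors 0.79 to 1.50) and tested with edgeR 4.0.16 (quasi-likelihood, R 4.3.3) by genotype over all 12 libraries, with Benjamini-Hochberg adjustment over 17019 genes. CPM is printed on TMM-scaled library sizes, apart from the ribosomal RNA cutoffs of the counting sets, which use total counts. Alternatives were DESeq2 1.42.0 and its size factors, limma-voom 3.58.1, total-count scaling, no filter, a replicate block, a counting-set term, and leaving libraries out. The fit was tested on simulated data. The simulation gave all genes a common spread and smaller shifts between sets than those of Eif4e, Eif4g1 and Eif4g3, so it does not cover such genes. Intervals and floors cover counting error only. Within each genotype no pair of libraries held duplicate counts (lowest median chi-square 2.02, for MYC 2 with MYC 3). Pairs across genotypes were not compared. Members and lists were chosen with earlier results of these data known. Genes named were every called member, the 5 highest and 5 lowest values of each comparison and a list of core factors, others by range and count.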

Additional observations from a re-analysis of the deposited data

Results flagged for a closer look

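A pseudogene that the choice of members left out, Eif4a-ps4, had a signal above that of WT. Its mean was 40.9 CPM in MYC and 38.3 CPM in MYC Setd2KO. By library it was 10.1, 8.95 and 5.90 CPM in WT, 9.90, 5.69 and 22.8 in Setd2KO, 37.3, 40.1 and 45.2 in MYC, and 25.0, 32.4 and 57.5 in MYC Setd2KO. All 6 libraries with the MYC construct lay above all 6 without it, the order that Eif4a1 also had. The share of all genes with that order is not given here. Reads can be shared between eIF4A genes and their pseudogenes, and their part in this level was not tested.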

How the results depend on the processing

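With no member called by genotype in any of the 5 comparisons, no call could be lost, and the alternatives could add calls. In MYC against WT the number of members called was 19 with scaling by total counts (29.7% of all genes), 8 with DESeq2 (26.4%), 1 with the counting-set term (2.39%) and 9 of 52 without the set 3 libraries (16.3%). It ran from 0 to 5 when each library was left out, and was 5 only without MYC 1, beside 24.8% of all genes (Eif4a1, Eif3m, Eif2d and Eif4e3 higher, Eif4g2 lower). In MYC Setd2KO against MYC it was 1 with DESeq2 and 1 with the counting-set term, and 0 without any 1 library. In MYC Setd2KO against Setd2KO it was 2 with the counting-set term and 5 of 52 without set 3, beside 8.85% and 7.41% of all genes, and it ran from 0 to 2 on leaving out a library, with 2 only without Setd2KO 3 (Eif3m and Eif2s3x), beside 2.31%. It stayed at 0 in Setd2KO against WT and in the interaction under every alternative run. DESeq2 size factors and no filter added no call. Where Setd2KO 3 was left out and Eif2s3x called, Y-chromosome transcripts were absent from MYC Setd2KO 1 and 3. They were present in Setd2KO 1 and 2. Within sets 2 and 3 Eif2s3x was higher in the libraries without those transcripts, and the part of this in its call was not tested. Over all genes MYC against WT called 957 higher and 402 lower. The counts were 4816 and 232 with total counts, which moved the median of all genes by 0.76, 2881 and 1611 with DESeq2, 483 and 208 with limma-voom, 157 and 250 with the counting-set term, and 2641 and 1781 without MYC 1. They were at most 3 genes in all on leaving out any other library of the 2 groups.

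The labels do not say what libraries of the same replicate number share. Same-numbered libraries correlated between -0.60 and 0.68 in their deviations from the group means, above 0.1 in 11 of 18 pairs. Outside WT, every library numbered 3 is in set 3 and every library numbered 1 is in set 1 or 2. The replicate block therefore overlaps in part with counting set. With the replicate block 3 members were called in MYC against WT (Eif4a1, Eif2s3x and Eif2d), beside 1466 genes higher and 813 lower, and 0 in the other comparisons.

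The 21 log2 fold changes of named members followed here were chosen with results of these data known. Their alternatives reuse the same libraries, so agreement in sign was largely set in advance. Direction also ignores size, as Eif4g1 in MYC against WT went from 6.20 to 0.25 with the counting-set term. Of 294 alternative values, 288 kept their direction. The 6 that turned were Eif4g3 (-0.055), Eif4a2 (-0.14), Eif5 (-0.51) and Eif2s3x (-0.20) in MYC against WT with the counting-set term, Eif1b (0.17) there with total counts, and Eif1a (-0.20) in MYC Setd2KO against Setd2KO without MYC Setd2KO 3, where leaving out each library gave -0.20 to 1.56; the cause was not tested. The counting-set term rests on Setd2KO 3 for the step from set 1. Without set 3, in MYC 1 alone against WT, Eif4a1 was 0.98, Eif3m 0.73, Eif2s3x 1.04, Eif4ebp1 1.01 and Eif3b 0.76, each past the threshold, and the lone MYC library is assumed to vary like the other groups. For Eif4e 8 libraries held 0 to 2 counts, so its ratios carry wide intervals; the WT libraries at 0 held 22997852 to 44227191 counts in all, more than any set 3 library.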

Other observations

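The other names left out by the rule held little signal, apart from Eif2s3y. Eif3s6-ps2, a pseudogene of Eif3e, was 5.16, 5.46 and 4.42 CPM in WT, 3.10, 4.39 and 0.60 in Setd2KO, 0.79, 1.28 and 1.22 in MYC, and 0.22, 0.63 and 2.91 in MYC Setd2KO. All 5 libraries of set 1 lay above all 7 others, the reverse of the division seen in Eif4e. Eif5al3-ps ran from 0.26 to 1.02 CPM in set 1 and from 0.0 to 0.38 in the other sets. The 5 remaining pseudogenes stayed at or below 1.68 CPM in every library, and Eif1-ps had no count in any.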
